A study of Mus musculus with 11 samples.

Results

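Potassium channels set the membrane potential of the vessel wall, and 9 genes that encode channel subunits known from blood vessels were followed here in the aortic arch of the young mouse. They are the inward rectifier pores Kcnj15, Kcnj16, Kcnj2 and Kcnj8, the regulator Abcc9, the calcium-activated pair Kcnma1 and Kcnmb1, and the voltage-gated pores Kcna5 and Kcnq5. The 9 genes were matched by symbol among the 48709 mouse genes of the count table. Of these, 8 also had a row in the table of 19629 genes in CPM (counts scaled to library size), and 7 were among the 14757 genes with enough counts to be tested. The set was chosen on values measured in these libraries, with the genotype comparison known, so the differences of its members between genotypes are given as a description, without a test.

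The aortic arches were taken at postnatal day 11 for bulk RNA sequencing. The 5 wild-type libraries (Tgfbr2-+/+, WT 1 to 5) and the 6 heterozygous ones (Tgfbr2-G357W/+, named LDSR2 in the series description, Het 1 to 6) came from littermates, with no treatment in either group. The mutant allele models Loeys-Dietz syndrome type II, an inherited connective tissue disorder with aortic aneurysm, and Tgfbr2 is the type II receptor of TGF-beta. The labels name no cell-specific driver of the allele, and they list smooth muscle plus endothelium for what was a whole piece of tissue.

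A potassium channel lets potassium leave the cell, which moves the membrane towards a more negative potential, closes voltage-gated calcium channels and relaxes smooth muscle. Inward rectifiers are pores that pass current near the resting potential, and some of them form the ATP-sensitive (KATP) channel together with a sulfonylurea receptor. BK channels open on calcium and depolarization, and voltage-gated (Kv) channels on depolarization alone. In arterial smooth muscle, all these classes are known to take part in the control of tone.

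The libraries held between 13113467 and 19327935 counts, and the limit of 3 counts that a count of 0 allows, which covers counting error only, lay between 0.155 and 0.229 CPM. Tgfbr2 itself, which carries a point mutation, was at 41.3 ± 4.28 CPM in the WT libraries (SD, n = 5) and 38.9 ± 8.21 CPM in the Het libraries (SD, n = 6), a log2 fold change of -0.09 ± 0.13 (SE) that did not pass edgeR's test (adjusted p = 0.790). The tissue showed the markers of its label: 6 smooth muscle markers summed to 33503 to 38000 CPM in WT and 30363 to 41372 CPM in Het, and 6 endothelial markers to 338 to 462 and 309 to 531 CPM. Most of the first sum was Acta2 (25672 to 28323 CPM in WT), and most of the second was Pecam1 (229 to 342 CPM in WT). The endothelial Cdh5, Kdr and Emcn were scarce, between 0.535 and 10.5 CPM in WT. The sexes were not balanced: WT 1 to 5, Het 1 and Het 2 had 900 to 1139 counts of the female transcript Xist and 0 counts of the Y-linked Ddx3y, whereas Het 3 to 6 had at most 10 and 1176 to 2039. No WT library was male, so for the channel genes, values with sex taken into account are given below where they change a statement. For the marker genes, the neighbours of Kcnj15 and the genes most like it, no such values are given. For these genes, the part of sex in the differences between genotypes was not examined. Whether lower bulk levels mean fewer cells of a type or less RNA per cell cannot be told apart in any of the results.

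The most abundant inward rectifier genes by level per length were Kcnj8, which encodes the KATP pore Kir6.1, and Kcnj15, which encodes Kir4.2. Their promoters are printed because Kcnj15 was lower in Het and Kcnj8 was at a like level in both genotypes. Each line holds the 250 bases before the RefSeq start of the gene (GRCm38.p6, strand of the gene, 5′ to 3′), at chr16:95257308-95257557 on the plus strand for Kcnj15 and chr6:142571615-142571864 on the minus strand for Kcnj8. Capitals mark the short core element CAGAC, known from Smad binding, which both windows hold in the reverse orientation (GTCTG).
Kcnj15: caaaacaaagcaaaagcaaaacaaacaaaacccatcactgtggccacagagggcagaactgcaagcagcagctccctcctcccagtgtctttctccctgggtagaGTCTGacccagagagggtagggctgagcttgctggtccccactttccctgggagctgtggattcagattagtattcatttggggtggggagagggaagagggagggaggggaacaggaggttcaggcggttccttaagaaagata
Kcnj8: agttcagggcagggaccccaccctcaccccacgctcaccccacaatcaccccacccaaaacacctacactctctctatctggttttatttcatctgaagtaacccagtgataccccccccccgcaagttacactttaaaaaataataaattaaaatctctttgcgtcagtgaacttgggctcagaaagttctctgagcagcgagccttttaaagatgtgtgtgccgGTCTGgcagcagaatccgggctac
Counted from the start, with -1 as the base just before it, the element begins at -145 in Kcnj15 and at -24 in Kcnj8. It was found on either strand in 42.2% of 32851 promoter windows of this length, so each gene shares it with many others. Both windows also hold 1 E-box (CANNTG), a motif with at least 1 match in 66.2% of all windows. Neither holds a CArG box, the site known for serum response factor (1.47% of windows), nor TATAAA (12.4%). The Kcnj15 window had a GC content of 53.2% and 1 CpG, and that of Kcnj8 had 49.2% and 6 CpGs, against medians of 52.4% and 6 over all windows. These matches describe the letters and say nothing of binding.

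Kcnj15 (ENSMUSG00000062609, chromosome 16, 95257558 to 95300260, plus strand, GRCm38) was the member with the large difference. Its level in WT 1 to 5 was 60.6, 64.1, 63.9, 58.2 and 78.9 CPM. In Het 1 to 6 it was 19.2, 15.5, 16.5, 22.6, 15.8 and 17.3 CPM. The lowest WT library thus stood well above the highest Het library, and WT 5 stood above the other WT libraries. The means were 65.1 ± 8.11 CPM (SD, n = 5) and 17.8 ± 2.68 CPM (SD, n = 6), a log2 fold change of -1.87 ± 0.12 (SE), or 3.66-fold lower in Het. Scaled to exon length as well as depth (RPKM, CPM per kilobase of exon), the mean was 10.3 ± 1.28 in WT and 2.82 ± 0.42 in Het.

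The level of Kcnj15 was low in both sexes of Het. The female libraries Het 1 and Het 2 were at 19.2 and 15.5 CPM, beside 15.8 to 22.6 CPM in the 4 male ones, and against the female WT libraries alone the log2 fold change was -1.91. Over 25 other settings of the analysis, which include every library left out in turn, it stayed between -1.95 and -1.79. Each library held 215 to 1246 counts of it, 6515 in all. An annotated gene on the opposite strand, Gm49643, shares 2664 exonic bases with Kcnj15 and is not among the counted genes, so it could not be analysed. The libraries do not mark strand, so its reads could not be told from those of Kcnj15.

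The other members lay close to their WT level or were too low to say. Of the 7 members with enough counts, 6 had ranges that overlapped between the genotypes, and Kcnj15 was lower in every Het library than in every WT library, beside 2.22% of all tested genes that were apart in this direction. Since the members were picked with this contrast in view, nothing is read from their count. The median log2 fold change of the tested members was -0.03, beside -0.0046 over all tested genes.

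**Figure D1:**
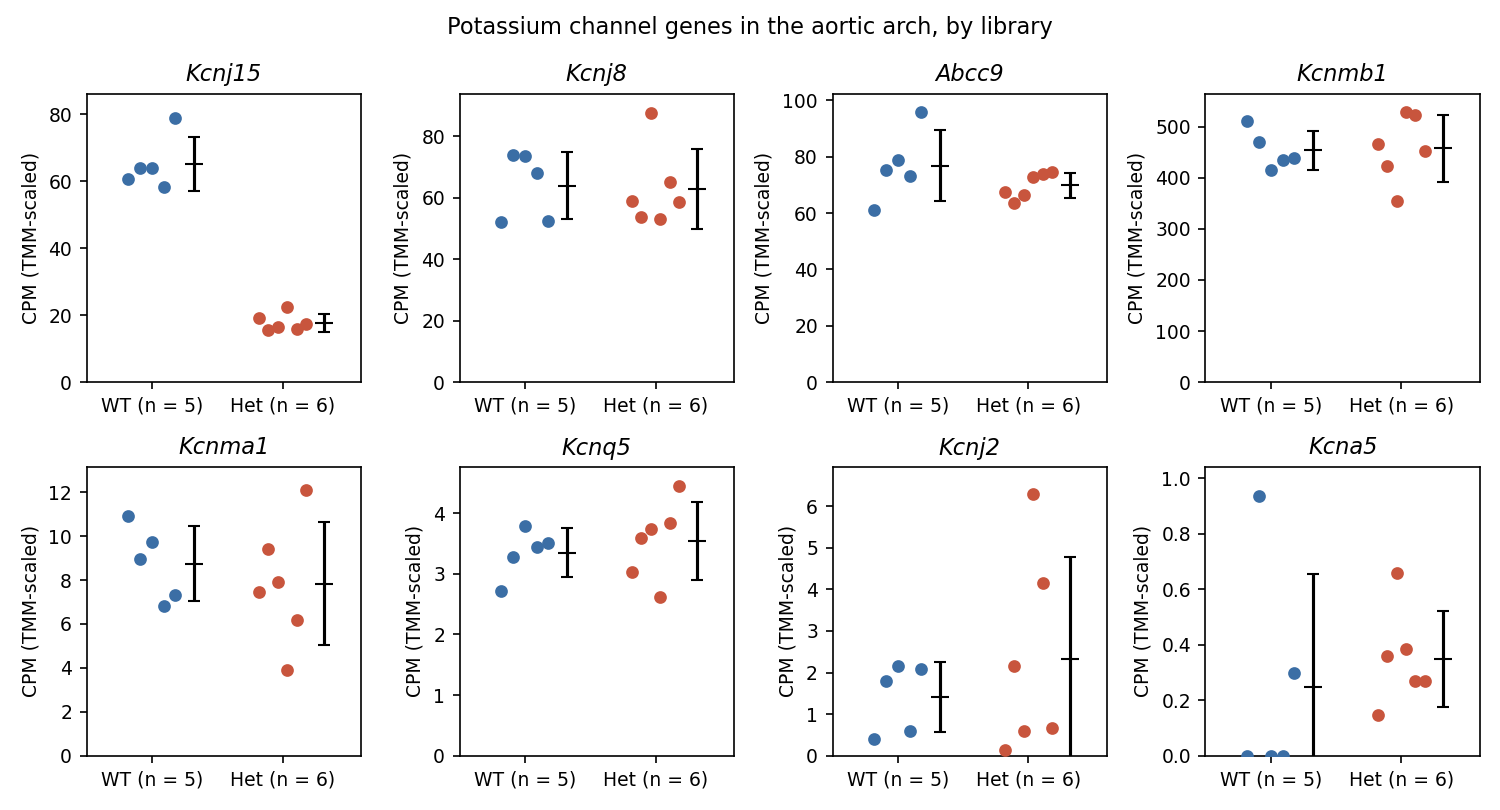
Level of 8 members in each library (CPM, scaled by TMM), 1 point per library, WT in blue and Het in red, with mean and SD as bars; Kcnj16, with no count, is left out. The Kcnj15 points of Het lie at 15.5 to 22.6 CPM, all under the WT points at 58.2 to 78.9 CPM, while the points of the other genes overlap.

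Kcnj8 (ENSMUSG00000030247, chromosome 6, 142564837 to 142571614, minus strand) was at 52.2, 73.9, 73.5, 68.2 and 52.4 CPM in WT 1 to 5. In Het it ranged from 53.0 to 87.6 CPM with a median of 58.9 CPM. The ranges overlapped almost entirely, and Het 3 was the highest library of all. The log2 fold change was -0.03 ± 0.14 (SE), and the level per length was 25.1 ± 4.31 RPKM in the WT libraries (SD, n = 5) and 24.7 ± 5.06 RPKM in the Het libraries (SD, n = 6).

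Abcc9 (ENSMUSG00000030249) encodes SUR2, the sulfonylurea receptor that assembles with Kir6.1 into the vascular KATP channel. It lies 16.247 kb from Kcnj8 on the same strand, at 142587862 to 142702315. Its levels were 61.1, 75.2, 78.7, 73.1 and 95.8 CPM in WT 1 to 5, and 63.6 to 74.4 CPM in Het with a median of 70.2 CPM. All Het libraries fell inside the WT range, and the log2 fold change was -0.14 ± 0.10 (SE). The spread was wider in WT, with a coefficient of variation of 16.3% against 6.55% in Het. Per length, Abcc9 stood at 0.375 ± 0.103 of Kcnj8 in the WT libraries (SD, n = 5) and 0.348 ± 0.064 in the Het libraries (SD, n = 6).

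Although the genes encode the pore and the regulator of 1 channel, no relation between Kcnj8 and Abcc9 was detected within the groups. The correlation of the deviations of log2 CPM from the group means was r = -0.057 over 11 libraries (exact permutation within groups, two-sided p = 0.904) and rho = -0.091 (exact p = 0.824). Adjusted over the 2 pairs for which it was computed, these p-values were 0.904 and 0.824. Without WT 2 and Het 3, which were farthest from the median of Kcnj8, r was 0.091. It was -0.008 in the 5 WT libraries and -0.16 in the 6 Het libraries. The sign of such a small value turned with single libraries, to 0.358 without WT 5.

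Kcnj8 and Abcc9 are also in common use as marker genes of pericytes, the mural cells of small vessels. Of 9 other pericyte markers, 7 were tested and 3 were higher in Het by edgeR's test: Cox4i2 by 1.18 ± 0.16 on the log2 scale (SE, adjusted p = 4.91e-04), Notch3 by 0.86 ± 0.13 (adjusted p = 0.00138) and Cspg4 by 0.31 ± 0.08 (adjusted p = 0.0330). Among all tested genes, 2.65% were higher in Het by this test. The summed level of the list overlapped, at 5335 to 9635 CPM in WT and 6182 to 9401 CPM in Het, and most of it was Rgs5, which did not pass (0.04 ± 0.15, adjusted p = 0.939). Pdgfrb (0.07 ± 0.07, adjusted p = 0.688) did not pass either. Ndufa4l2 (-0.31 ± 0.31, adjusted p = 0.657) and Anpep (-0.39 ± 0.17, adjusted p = 0.200) had negative values and did not pass. The part of these cells in the KATP values was not tested.

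The mix of inward rectifier transcripts differed along with Kcnj15. Over the 15 pore genes of this family, 12 of which had at least 1 count, Kcnj15 made up 28.5% ± 5.05 of the summed RPKM in the WT libraries (SD, n = 5) and 10.1% ± 2.34 in the Het libraries (SD, n = 6). The share of Kcnj8 was 68.4% ± 5.61 and 86.2% ± 3.60. The ratio of Kcnj15 to Kcnj8 per length ran from 0.344 to 0.608 in WT and from 0.076 to 0.172 in Het. The family's summed level was 36.6 ± 3.82 RPKM in WT and 28.5 ± 4.84 RPKM in Het, and these sums overlapped between libraries. Because the shares rest on Kcnj15, they restate its difference and are not separate evidence.

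**Figure D2:**
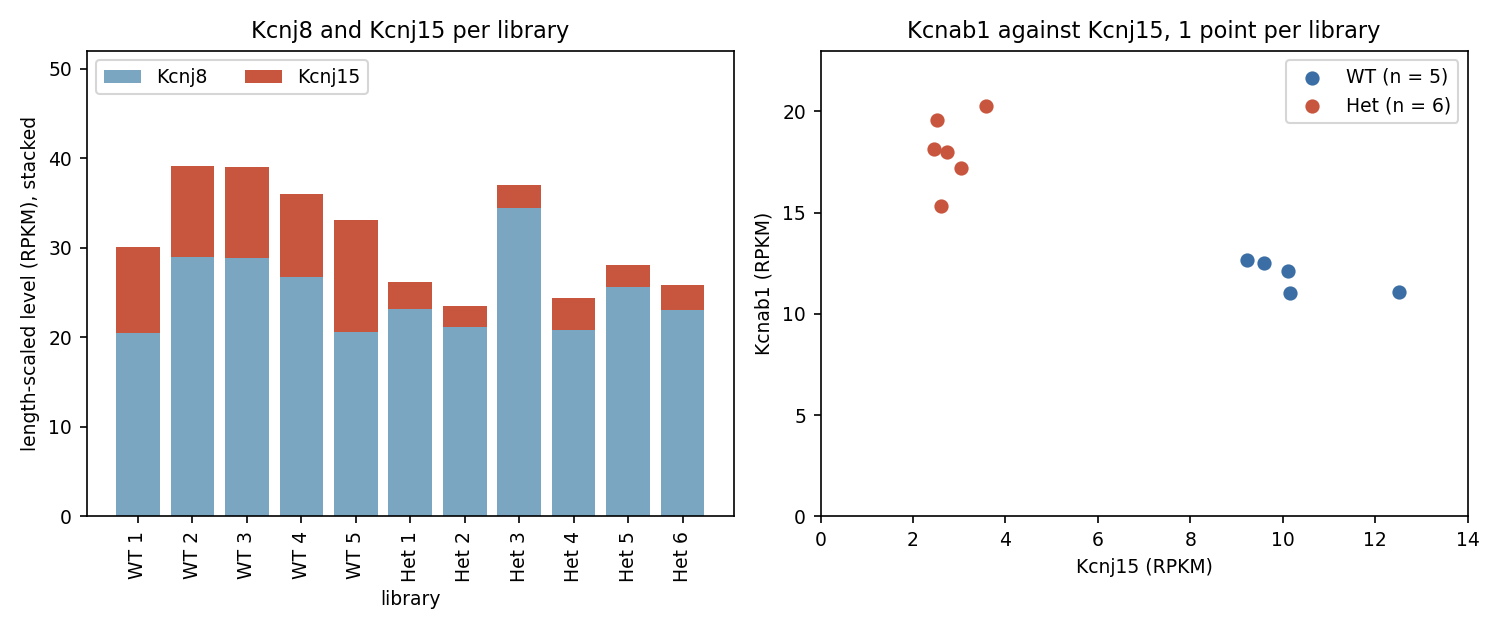
Left, level per length (RPKM) of Kcnj8 and Kcnj15 in each library, stacked; right, Kcnab1 against Kcnj15 in RPKM, 1 point per library. The Kcnj15 segment spans 9.21 to 12.5 RPKM in WT and 2.45 to 3.58 RPKM in Het on a Kcnj8 base that overlaps. On the right the genotypes form separate groups, as they do for each of these genes alone.

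The remaining inward rectifiers were scarce. Kcnj2 (ENSMUSG00000041695, chromosome 11, 111066164 to 111076821, plus strand) encodes Kir2.1, the classical strong inward rectifier of vascular cells. It was at 0.397, 1.81, 2.15, 0.587 and 2.09 CPM in WT 1 to 5, and at 0.148, 2.16, 0.587, 6.30, 4.16 and 0.673 CPM in Het 1 to 6. The libraries spanned 2 to 82 counts, with a coefficient of variation of 60.3% in WT and 104% in Het, and the ranges overlapped. The log2 fold change of 0.72 ± 0.72 (SE) was 0.15 without Het 4, and turned to -0.33 with a sex score as a covariate and to -0.29 in female libraries alone, so no direction can be given.

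Kcnj16 (ENSMUSG00000051497) encodes Kir5.1, which is known as a partner of Kir4.1 and Kir4.2 in heteromeric channels and passes little current alone. It lies 38.195 kb from Kcnj2, at 110968033 to 111027968 on the same strand. It had 0 counts in all 11 libraries, which limits its level to at most 0.229 CPM in the shallowest library. Kcnj15 was thus measured without a detectable transcript of this partner, at this depth. A relation between Kcnj2 and Kcnj16 could not be computed.

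Kcnmb1 (ENSMUSG00000020155, chromosome 11, 33963013 to 33973641, plus strand) encodes the beta1 subunit that raises the calcium sensitivity of the BK channel in smooth muscle. It was the most abundant gene of the set, at 512, 470, 415, 435 and 438 CPM in WT 1 to 5 and at 354 to 529 CPM in Het, with a median of 459 CPM. The groups overlapped, and the log2 fold change of 0.01 ± 0.10 (SE) was the smallest of the tested members. Per length its mean was 108 ± 9.01 RPKM in the WT libraries (SD, n = 5) and 109 ± 15.6 RPKM in the Het libraries (SD, n = 6), above every other listed potassium channel gene in both genotypes.

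Kcnma1 (ENSMUSG00000063142, chromosome 14, 23289431 to 24014491, minus strand) encodes the BK pore. Its levels were 10.9, 8.96, 9.74, 6.82 and 7.31 CPM in WT 1 to 5 and 3.92 to 12.1 CPM in Het, with a median of 7.69 CPM. The Het libraries spread to both sides of the WT range, and the log2 fold change was -0.16 ± 0.24 (SE). Its level per length, 0.515 ± 0.100 RPKM in WT and 0.461 ± 0.165 RPKM in Het, is computed over the union of its annotated exons, 16976 bases, which lowers it for a gene with many alternative exons.

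The level of Kcnmb1 per length was 215 ± 35.7 times that of Kcnma1 in the WT libraries (SD, n = 5) and 276 ± 150 times in the Het libraries (SD, n = 6), a ratio that the long union model of Kcnma1 raises. Het 4 had the highest ratio, 547, with the lowest Kcnma1 and the highest Kcnmb1 of its group. Within groups the genes were not related beyond the spread (r = -0.357, exact permutation p = 0.392, adjusted 0.783; rho = -0.40, exact p = 0.272, adjusted 0.545; n = 11). Without Het 4 and Het 6, the libraries farthest from the median of Kcnma1, r was -0.14, and it was 0.535 in WT and -0.556 in Het.

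Both voltage-gated members were low. Kcnq5 (ENSMUSG00000028033, chromosome 1, 21398403 to 21961942, minus strand) encodes Kv7.5, a pore of the M-current type that is known in arterial smooth muscle. It was at 2.71, 3.28, 3.79, 3.45 and 3.51 CPM in WT 1 to 5 and at 2.61 to 4.44 CPM in Het, with a median of 3.67 CPM. The ranges overlapped and the log2 fold change was 0.08 ± 0.20 (SE).

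Kcna5 (ENSMUSG00000045534, chromosome 6, 126532551 to 126535412, minus strand) encodes the delayed rectifier Kv1.5. It held 48 counts in all, spread over 8 libraries, and was not tested. WT 2 had 14 counts, WT 5 had 4 and the other WT libraries had 0, while Het 1 to 6 had between 2 and 9. In CPM this is 0 to 0.936 in WT and 0.148 to 0.660 in Het, and most libraries lie near or under the limit that a count of 0 allows. No difference between the genotypes was detectable at this depth.

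In the wider family of potassium channel genes, the share past the threshold was near that of all tested genes. Of 92 other subunit genes listed by gene nomenclature, 63 were too low to test. Among the 29 tested, 1 rose (Kcnab1), 1 fell (Abcc8) and 27 did not pass edgeR's test at an adjusted p of 0.05, with a median log2 fold change of -0.07. The genes that passed were 6.90% of the 29, beside 5.03% of all tested genes (2.65% with Het higher and 2.38% with Het lower). At an unadjusted p under 0.05 there were 7 of the 29. The groups were apart with Het higher for 3 of the 29 and with Het lower for 0, beside 2.4% and 2.22% of all tested genes. Nothing about the family is read from these small counts.

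Kcnab1 (ENSMUSG00000027827, chromosome 3, 65109384 to 65378223, plus strand) encodes Kv beta1, a cytoplasmic subunit that speeds the inactivation of Kv1 channels. It was at 107, 94.8, 104, 109 and 95.1 CPM in WT 1 to 5 and at 132 to 174 CPM in Het, with a median of 155 CPM. Every Het library was above every WT library. The means were 102 ± 6.75 CPM (SD, n = 5) and 155 ± 15.1 CPM (SD, n = 6), a log2 fold change of 0.61 ± 0.08 (SE) and 1.52-fold higher in Het (edgeR adjusted p = 5.44e-04). With the sex score as a covariate the change was 0.56 (adjusted p = 0.0350), and in female libraries alone 0.58, where the adjusted p was 0.0801 with Het reduced to 2 libraries. The opposite-strand gene A330015K06Rik shares 635 exonic bases with it and held 432 counts, against 21486 for Kcnab1.

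Kcnab1 and Kcnj15 were at like levels per length in WT, 11.9 ± 0.785 and 10.3 ± 1.28 RPKM. The ratio of Kcnab1 to Kcnj15 was 1.17 ± 0.19 in the WT libraries (SD, n = 5) and 6.50 ± 0.93 in the Het libraries (SD, n = 6). Because each gene alone was already apart between the genotypes, in opposite directions, the ratio had to be apart too. It restates their differences and is not separate evidence.

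Abcc8 (ENSMUSG00000040136, chromosome 7, 46104523 to 46180033, minus strand) encodes SUR1, the sulfonylurea receptor best known from the beta cell of the pancreas. It was at 5.75, 6.49, 6.00, 4.33 and 3.58 CPM in WT 1 to 5 and at 1.84 to 4.33 CPM in Het, with a median of 2.62 CPM. WT 5 was below Het 3, and the other WT libraries were above all of Het. The log2 fold change was -0.92 ± 0.24 (SE), with an edgeR adjusted p of 0.0407. This call was lost without any 1 of 8 of the 11 libraries (WT 1, WT 2, WT 3, Het 1, Het 2, Het 4, Het 5 or Het 6), up to an adjusted p of 0.107 without WT 2. It was also lost with the sex score (log2 fold change -1.02, adjusted p = 0.298) and in female libraries alone (-1.08, adjusted p = 0.356), where the difference was no smaller than in all libraries. The call was lost as well with the column-name number as a covariate (-0.84, adjusted p = 0.119), without WT 1 and WT 2 together (-0.75, adjusted p = 0.200) and without a filter on low counts (-0.92, adjusted p = 0.0537). The level of Abcc9 per length was 15.3 ± 6.35 times that of Abcc8 in the WT libraries (SD, n = 5) and 26.3 ± 7.80 times in the Het libraries (SD, n = 6).

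Kcnj11, which encodes the other KATP pore, Kir6.2, was at 1.98 ± 0.675 CPM in the WT libraries (SD, n = 5) and 1.37 ± 0.458 CPM in the Het libraries (SD, n = 6), and did not pass (log2 fold change -0.53 ± 0.32, SE, edgeR adjusted p = 0.391).

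Kcnip4 encodes a calcium-binding auxiliary subunit of Kv4 channels. It is named after its values were seen, since its groups did not overlap although edgeR's test was not passed. It was at 18.2 to 23.8 CPM in WT and 24.7 to 29.7 CPM in Het, with a log2 fold change of 0.36 ± 0.11 (SE, adjusted p = 0.0641). DESeq2 called it, as it did Kcnab1 and Abcc8.

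Apart from Kcnab1, which passed, the most abundant non-member genes named for the other classes did not pass edgeR's test. Kcne4, a single-pass auxiliary subunit of Kv channels, was at 66.1 ± 11.6 CPM in the WT libraries (SD, n = 5) and 83.9 ± 17.9 CPM in the Het libraries (SD, n = 6), with an adjusted p of 0.222. Kcnk3, the background channel TASK-1, was at 44.8 ± 4.73 and 58.1 ± 12.6 CPM (adjusted p = 0.128). Among Kv pores, the log2 fold change of Kcna6 was -0.41 ± 0.20 (SE, adjusted p = 0.274) and that of the silent subunit Kcns3 -0.04 ± 0.26 (adjusted p = 0.958). The calcium-activated Kcnn4 and the sodium-activated Kcnt2 had values of -0.32 ± 0.29 and -0.01 ± 0.24 (adjusted p = 0.602 and 0.992). The BK auxiliary gene Lrrc38 and the background channel Kcnk1 had values of -0.20 ± 0.32 and -0.28 ± 0.25 (adjusted p = 0.794 and 0.598).

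**Figure D3:**
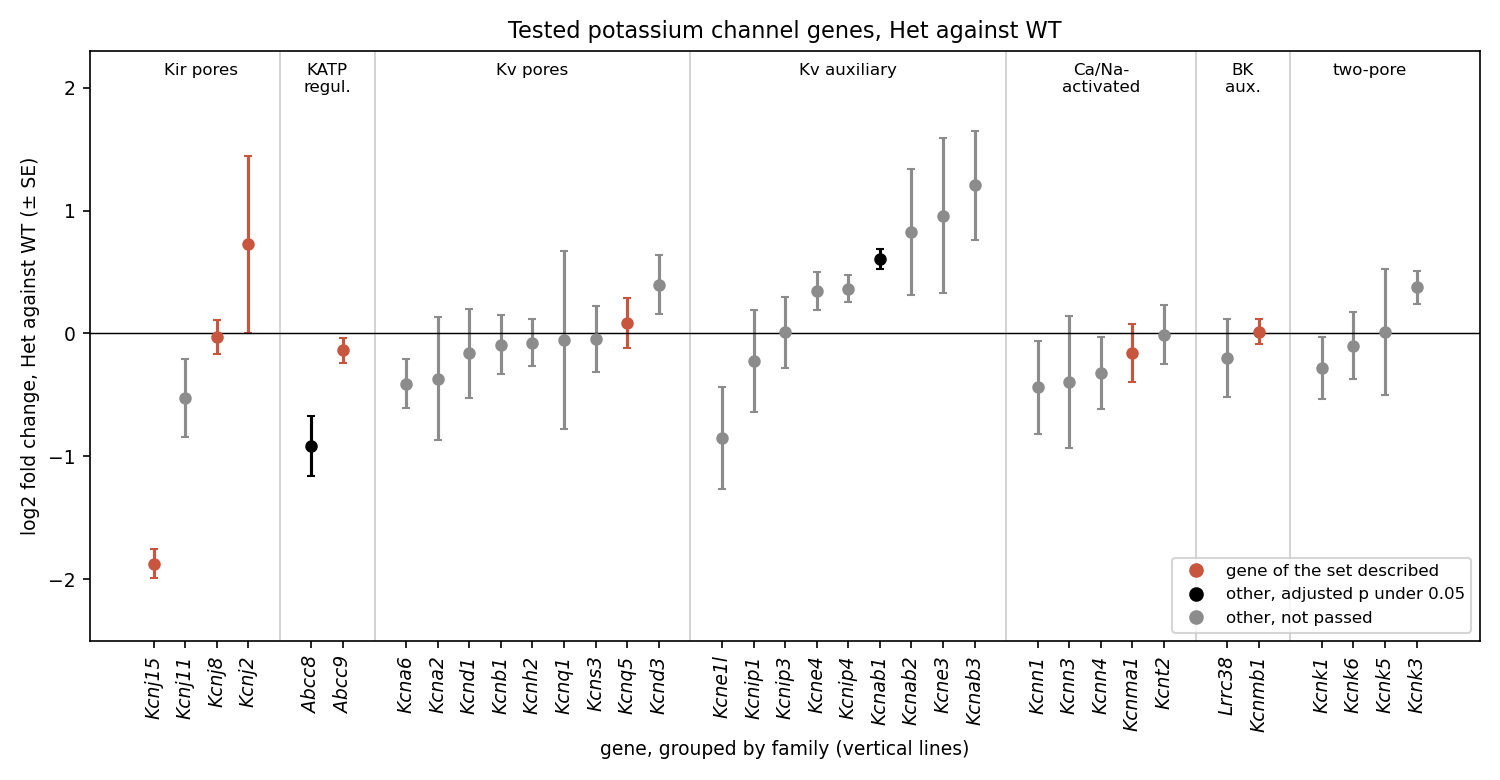
Log2 fold change of Het against WT with its SE for tested potassium channel genes, ordered by value within each family; members in red, other genes past an adjusted p of 0.05 in black, the rest in grey. Kcnj15 at -1.87 lies lowest of all, Abcc8 at -0.92 and Kcnab1 at 0.61 are the genes outside the set past the threshold, and the members apart from Kcnj15 and Kcnj2 lie between -0.16 and 0.08.

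By level per length, the order in WT was Kcnmb1, Kcnj8, Kcne4, Kcnab1, Kcnk3, Kcnj15, Abcc9 and Kcnip4. Kcnj8 and Kcne4, at 25.1 ± 4.31 and 24.9 ± 4.36 RPKM, changed order between the WT libraries. Kcnk3, Kcnj15 and Abcc9 were at 11.3 ± 1.19, 10.3 ± 1.28 and 9.17 ± 1.5 RPKM (SD, n = 5). Kcnk3 and Kcnj15 also changed order between the WT libraries, whereas Kcnj15 was above Abcc9 in each of them. In Het, Kcnj15 ranked 8 of the 101 listed genes, against 6 in WT, and stood below Abcc9 at 8.34 ± 0.55 RPKM and Kcnip4 at 7.56 ± 0.60 RPKM (SD, n = 6). The lower members kept far below these, with Kcnma1 and Kcnq5 at 0.461 and 0.461 RPKM in Het, Kcnj2 at 0.429 and Kcna5 at 0.122.

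None of the 6 nearest tested genes around Kcnj15, 3 on each side, passed edgeR's test. The nearest tested gene downstream, Erg, an endothelial transcription factor 58.909 kb away on the opposite strand, had a log2 fold change of -0.25 ± 0.22 (SE, edgeR adjusted p = 0.581). Next to it, Ets2, a related transcription factor, was at 26.9 ± 2.43 CPM in the WT libraries (SD, n = 5) and 18.8 ± 4.02 CPM in the Het libraries (SD, n = 6), a log2 fold change of -0.51 ± 0.14 (SE, adjusted p = 0.0515). The third, Psmg1, was at -0.16 ± 0.14 (adjusted p = 0.588). The 3 nearest tested genes upstream, Dyrk1a, Vps26c and Ttc3, lay at least 562 kb away and had values of -0.34 ± 0.19, -0.05 ± 0.08 and 0.10 ± 0.09 (adjusted p = 0.348, 0.802 and 0.613).

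The genes whose levels followed those of Kcnj15 most closely were ranked among 14213 genes with a mean of at least 1 CPM in a group, over the 11 libraries. On log2 CPM, which includes the difference between genotypes, they were Wif1 (r = 0.983), Ctsb (0.970), Smoc1 (0.968), Xpnpep1 (0.968) and Pi15 (0.966). Wif1, a secreted Wnt inhibitor, went from 48.3 ± 9.78 CPM in the WT libraries (SD, n = 5) to 12.3 ± 2.11 CPM in the Het libraries (SD, n = 6). Smoc1, a secreted calcium-binding matrix protein, went from 113 ± 17.1 to 64.5 ± 6.80 CPM. On deviations from the group means, which leave the genotype out, the closest were 4933404O12Rik (0.878), Abcc1 (0.876), Smoc1 (0.865), Eral1 (0.864) and Rrp1b (0.862). These are the highest of 14213 values over 11 libraries, and how high r would reach among unrelated genes was not tested. Smoc1 was the gene that both rankings held, but log2 CPM includes the same deviations, so the rankings are not independent. All genes of a library share its depth and its scaling, and WT 5 had the highest Kcnj15 of all.

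The sums of the kidney and epithelium list and of the skeletal muscle list were lower in Het, each mainly through 1 gene. The 4 genes listed for kidney and epithelium summed to 217 to 321 CPM in WT and 87.2 to 155 CPM in Het, which was nearly all Krt18 (log2 fold change -1.24 ± 0.14, SE, edgeR adjusted p = 1.27e-04). Krt8, the other tested gene of this list, did not pass (-0.02 ± 0.49, adjusted p = 0.992). The defining epithelial genes were near 0, with at most 2 counts of Epcam and 1 of Cdh1 in any library. The 8 skeletal muscle genes summed to 18.9 to 39.6 CPM in WT and 8.54 to 15.8 CPM in Het, mainly Tnnt3 (-1.63 ± 0.23, adjusted p = 6.49e-04). The other tested genes of this list, Acta1 (0.55 ± 0.39, adjusted p = 0.484) and Mylpf (0.07 ± 0.26, adjusted p = 0.931), did not fall. The myosin heavy chains Myh1, Myh2, Myh4 and Myh8 had at most 5 counts. Among the smooth muscle genes Cnn1 fell by 0.51 ± 0.13 on the log2 scale (adjusted p = 0.0346) and the other 5 did not pass. In the fibroblast list 1 of 6 genes fell, Pi16 (-0.62 ± 0.10, adjusted p = 0.00194). The sums of the endothelial, cardiomyocyte, fat, macrophage and nerve lists overlapped, and 0 of their 23 tested genes passed with edgeR or with DESeq2 (3 at an unadjusted p under 0.05 with edgeR). The part of any of these cells in the Kcnj15 difference was not tested.

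**Figure D4:**
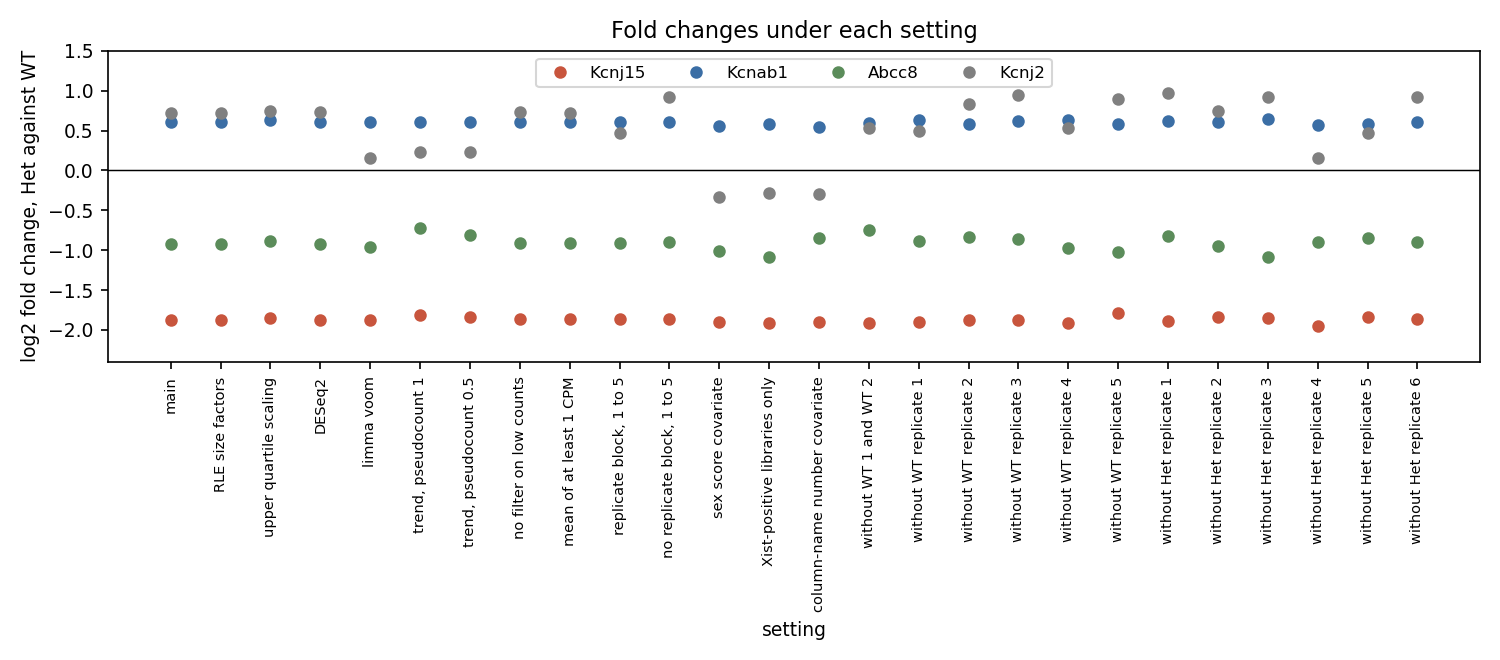
Log2 fold change of Het against WT for Kcnj15, Kcnab1, Abcc8 and Kcnj2 under the reported analysis and 25 other settings, 1 column each. Kcnj15 stays between -1.95 and -1.79 and Kcnab1 between 0.55 and 0.65, while Kcnj2 crosses 0 in the 3 settings that take sex or the number in the column names into account.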

How the data were processed

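Total RNA went into Nextera XT libraries that keep no strand information and were read on a NextSeq as single 75 nt reads over 2 runs, per the labels' protocols. STAR 2.5.2a, edgeR, limma, DESeq2 and the GRCm38 build are named in the submitters' processing notes. Which program counted the reads, and on which gene models, is not given in the sources.

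The deposited table holds raw counts by the authors for 48733 rows. Of these, 24 are spike-in or transgene rows (at most 8.06e-05% of a library) and stayed out of all fits. Another deposited count table has 19629 of the rows with equal values. A further one, named as TMM-normalized CPM by the authors, sums to 966683 to 1026471 per library; this deposited signal was used for 1 kind of alternative test. The design text counts 1 mouse per library, and libraries were grouped by the genotype in their labels.

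Genes were kept with edgeR's filterByExpr (minimum count 10, minimum total 15), scaled by TMM (factors 0.979 to 1.03) and fitted with edgeR's robust quasi-likelihood F test over 5 WT and 6 Het libraries (edgeR 4.0.16, R 4.3.3), with Benjamini-Hochberg adjustment over 14757 genes and no covariate. The common biological coefficient of variation was 0.215. SE is the size of the log2 fold change divided by the square root of F. RPKM used the union of exons in GENCODE M21 (GRCm38, positions counted from 1). Promoter sequences are RefSeq's, GRCm38.p6, and all 9 members were matched. Without strand information, reads of genes that overlap on opposite strands cannot be told apart. On simulated counts, the test recovered 34.3% of changes of 1.5-fold, 58.2% of 2-fold and 93.9% of 4-fold, with 4 false calls among 128. A gene that did not pass can thus still differ by 1.5-fold or 2-fold.

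The members and the lists of channel and marker genes were chosen with earlier results of these data known. The rule named all members, each other channel gene past an adjusted p of 0.05, the most abundant other genes of each channel family (up to 2) by RPKM in WT, and the 5 genes most like Kcnj15 on each of 2 measures. Kcnip4, the neighbours of Kcnj15 and the marker genes given singly were added to the named genes with their values known. The values of 1 other channel gene are not reported here; it stays in the counts.

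The alternatives tried were RLE and upper quartile scaling, DESeq2 1.42.0, limma 3.58.1 (voom, and trend on the deposited CPM with pseudocounts of 1 and 0.5), other low-count filters, the replicate number as a block, a sex score (Ddx3y, Eif2s3y, Kdm5d and Uty minus Xist), the 7 libraries with at least 100 Xist counts, the number 6 or 7 in the deposited column names, whose meaning is not given, the fit without WT 1 and WT 2, and leaving out single libraries. The column-name number was 7 for WT 1, WT 2, WT 4, WT 5, Het 3 and Het 6. It was 6 for the other libraries, so it was not balanced between the genotypes. The fit without the block on libraries 1 to 5 was added after seeing the data. It uses the same libraries as the fit without Het 6 and gave the same values. The 25 settings thus hold this fit under both names.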

Additional observations from a re-analysis of the deposited data

Results flagged for a closer look

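In 6 of 40 groups of libraries, the highest or lowest library stood apart from the rest by more than Dixon's 95% limit, which chance passes in about 1 of 20 groups. Among the members, Kcnj15 in WT 5 was at 78.9 CPM, with the other WT libraries at 58.2 to 64.1 CPM, and Kcnj8 in Het 3 was at 87.6 CPM, with the other Het libraries at 53.0 to 65.3 CPM. Tgfbr2 in WT 5 was at 48.7 CPM, against 38.2 to 40.9 CPM. Lrrc38 was at 2.21 CPM in WT 2, against 1.90 to 1.98 CPM, and at 0.513 CPM in Het 3, against 1.69 to 2.29 CPM. Kcnk1 was at 2.84 CPM in WT 1, against 1.64 to 1.94 CPM.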

How the results depend on the processing

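Over 25 alternatives, Tgfbr2 passed in none. The count of the other channel genes, 2 in the reported fit, was 4 with DESeq2, 0 with edgeR in the libraries with at least 100 Xist counts (6 at an unadjusted p under 0.05), and 1 without a filter on low counts, with the sex score, without WT 1 and WT 2, and with the column-name number. It was 1 to 2 when single libraries were left out, and the gene lost was Abcc8 each time. The cause was not tested. The correlation of Kcnj8 with Abcc9 turned positive without WT replicate 5 (0.358) and without Het replicate 3 (0.0709), and its range over single libraries left out was -0.492 to 0.358. For Kcnma1 with Kcnmb1 that range was -0.515 to -0.037. Kcns3 moved to -0.51 with the sex score. Depth limits Kcna5 and Kcnj16.

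Same-numbered WT and Het libraries did not deviate together (r of -0.197 to 0.064). This gives no sign of pairing by number, but it cannot exclude a shared litter, also because libraries numbered 3 to 5 differ in sex between the groups. With the replicate number as a block, in libraries numbered 1 to 5, the count of other channel genes was 1, and it was 1 without the block in the same libraries. Kcnj15 was then at -1.87.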
